A study of Mus musculus with 139 samples.

Results

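Lungs of mice given 80 µg of multi-walled carbon nanotubes (MWCNT) were compared with lungs given 40 µg, at 1, 6 and 12 months after a single dose and over the 3 times together. The 24 mice at 80 µg and the 24 mice at 40 µg were taken by the label that states material, dose and time, and make up 48 of the 139 arrays in the series. The animals were male, of a strain the labels write as C57BL/J6, and 7 weeks old at purchase, with no engineered allele named. Under isoflurane each mouse breathed in a 50 µL droplet placed behind the tongue, holding either 80 µg MWCNT, 40 µg MWCNT, 10 µg MWCNT or only the dispersion medium (DM), a buffered saline with glucose, mouse serum albumin and a surfactant phospholipid. Each of the 12 groups used here held 8 mice, and RNA of lung tissue was measured on 1 Affymetrix array per mouse. Other mice of the series received 1 µg MWCNT or 120 µg crocidolite asbestos and entered the fit only through the spread between mice. The question is which genes were still higher at the upper dose and which had levelled off by 40 µg.

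Rigid nanotubes that reach the alveoli are taken up by macrophages, which cannot digest them. Long-lasting particle burdens of this kind are known for macrophages that fill with lipid and swell with lysosomes, for mucous cells that spread along the airways, and for antibody-secreting cells around the deposits. In RNA of whole lung tissue, fewer cells of a type and less RNA per cell cannot be told apart.

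All values are on a log2 scale, on which a difference of 1 is 2-fold and 0.58 is 1.5-fold. Differences are 80 minus 40 µg unless another pair is named, and each is given with its standard error (SE) or its 95% interval. Tests are 2-sided moderated tests in limma with Benjamini-Hochberg adjustment over 22180 genes, and a gene was counted as higher or lower when its adjusted p was under 0.05. The difference over all times is the mean of the differences at the 3 times and is called the step. Its 95% interval had a median half-width of 0.17 over all genes, against 0.29 at a single time.

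Some arrays stood apart. Of the 24 mice at 80 µg, 4 were high in genes of squamous epithelium and skeletal muscle, tissues that are not lung, while 0 of the 24 mice at 40 µg were. These were replicate 4 at 1 month, replicate 3 at 6 months and replicates 1 and 5 at 12 months. At 6 months the 80 µg mouse numbered replicate 7 lay near DM mice in many responding genes, as described below. The labels give no meaning for the word replacement, which stood in the titles of 3, 2 and 5 of the 8 arrays at 80 µg at 1, 6 and 12 months, and of 0, 1 and 4 of the 8 at 40 µg. At 12 months the arrays without that word came late in the order of deposition at 40 µg (from position 134 of 139 on) and earlier at 80 µg (positions 97 to 116). Results that rest on these arrays are given with and without them. Leaving out arrays high in other tissue took 17 from the whole series, these 4 and 4 DM arrays among them, and leaving out arrays of low correlation took 8, of which 1 was a 40 µg mouse. A difference of 80 minus 40 µg then moves only through the arrays of those groups, but its p-value and the responses over DM move through all.

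Over all times 1 gene of 22180 rose at 80 µg over 40 µg and 0 fell, which is 0.00451% of the genes tested. The gene was Trem2, a receptor of macrophages for lipids and lipoproteins that is known from lipid-laden macrophages of many tissues. At 1, 6 and 12 months separately 0, 0 and 1 genes passed the limma test (0%, 0% and 0.00451%), while the unadjusted p was under 0.05 for 530, 696 and 3051 genes. The 1 gene at 12 months was Mon1a. Over all times 2048 genes had an unadjusted p under 0.05. An F test of whether the difference was the same at the 3 times found 0 genes (0%) in limma, and 865 were under 0.05 before adjustment.

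The promoter windows of 3 macrophage genes among those that rose most over DM are shown here because the levels of these genes recur below. Each is the 250 bases before the gene's RefSeq start, on the gene's strand, from build GRCm38.p6, and capitals mark matches to any of 3 motifs. The motifs, searched on both strands, were AP-1 (TGANTCA), the E-box TCANNTGA and the PU.1 motif GAGGAAGT. Each motif was searched alone, so a base could belong to matches of more than 1, and of 32851 mouse promoter windows of the same length 6.75%, 7.09% and 2.44% held them. Trem2 lies at chr17:48346151-48346400 on the plus strand and matched the E-box 162 bases and AP-1 9 bases before the start. Gpnmb lies at chr6:49036268-49036517 on the plus strand and matched no motif. Ctsk lies at chr3:95498960-95499209 on the plus strand and matched the E-box 136 bases before the start. Of the windows searched but not shown, those of Mmp12 together held all 3 motifs, Cd68 and Psap held AP-1, and Mon1a held none. A match is a description of the letters and was not tied to any measurement.
Trem2: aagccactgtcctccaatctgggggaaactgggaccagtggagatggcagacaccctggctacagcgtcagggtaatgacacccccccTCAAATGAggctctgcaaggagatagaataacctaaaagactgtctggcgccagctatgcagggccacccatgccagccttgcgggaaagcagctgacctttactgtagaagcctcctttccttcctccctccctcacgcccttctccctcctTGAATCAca
Gpnmb: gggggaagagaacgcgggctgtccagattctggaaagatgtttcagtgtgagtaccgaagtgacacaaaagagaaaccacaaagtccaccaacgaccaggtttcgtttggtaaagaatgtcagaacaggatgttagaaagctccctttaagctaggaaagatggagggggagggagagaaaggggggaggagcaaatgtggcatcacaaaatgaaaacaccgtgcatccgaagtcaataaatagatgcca
Ctsk: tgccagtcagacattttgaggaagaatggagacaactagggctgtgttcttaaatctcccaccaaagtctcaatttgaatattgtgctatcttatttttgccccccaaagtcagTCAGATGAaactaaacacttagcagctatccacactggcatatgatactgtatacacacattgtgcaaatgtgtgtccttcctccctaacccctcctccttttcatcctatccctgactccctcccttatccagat

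Trem2 did not pass the test at any single time (adjusted p of 1, 0.999 and 0.222 at 1, 6 and 12 months). At 1 month its lowest, median and highest values were 6.11, 6.79 and 7.71 in 80 µg mice, against 5.36, 5.98 and 6.83 in 40 µg mice, and 8 of 8 mice at 80 µg lay above the median of the 40 µg mice. At 6 months they were 4.92, 6.23 and 7.71 at 80 µg and 4.94, 5.74 and 6.50 at 40 µg, with 1 mouse at 80 µg below every mouse at 40 µg. At 12 months they were 5.53, 6.06 and 6.63 at 80 µg and 4.78, 5.48 and 6.00 at 40 µg, again with 8 of 8 above the 40 µg median. The groups overlapped at every time, and DM mice lay between 4.52 and 5.23. The step was 0.70 ± 0.14 (SE, 95% interval 0.42 to 0.97, adjusted p = 0.0387 in limma), from differences of 0.78, 0.67 and 0.65 at 1, 6 and 12 months. The call depended on the mice: over the 48 fits that each left out 1 mouse the step lay between 0.64 and 0.77, and 23 of them kept the adjusted p under 0.05 (0.00201 to 0.18). Without arrays high in other tissue the step was 0.67 with an adjusted p of 0.322, and with the word replacement as a covariate it was 0.64 with an adjusted p of 0.184.

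**Figure D1:**
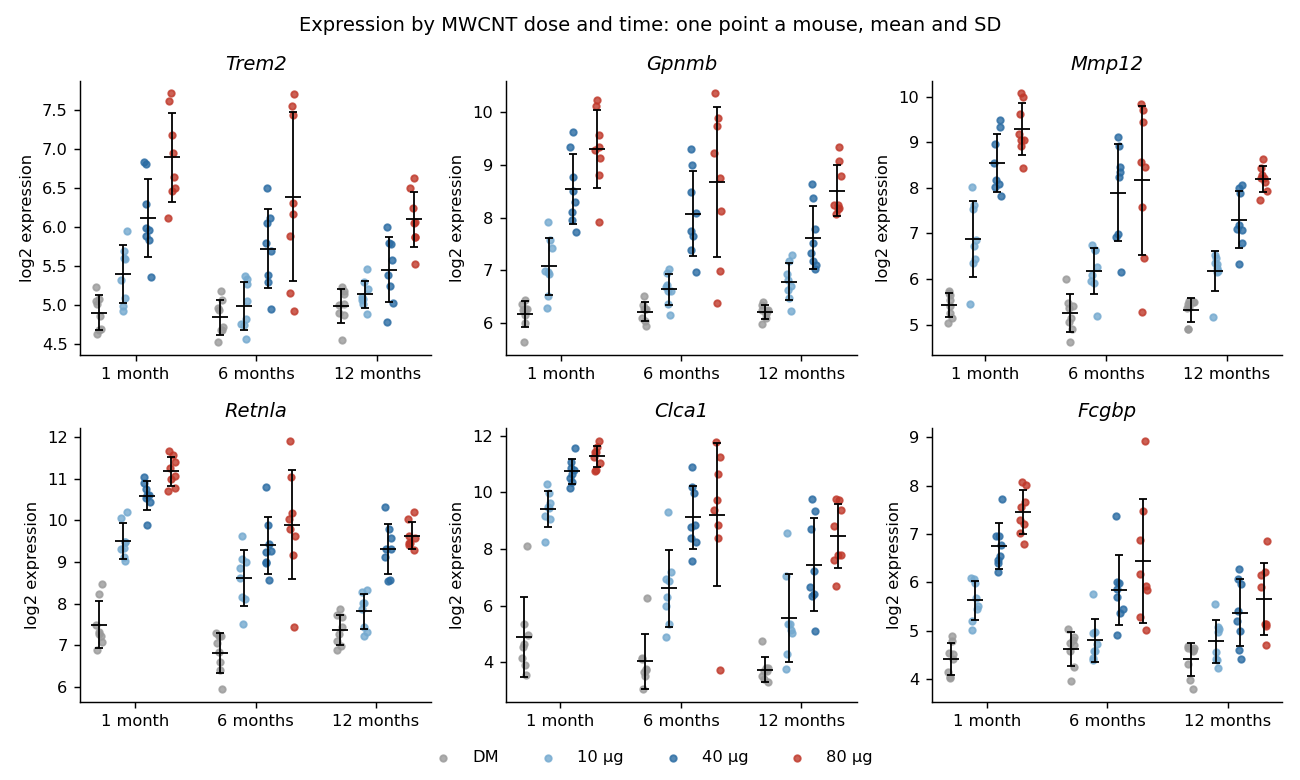
Log2 expression (vertical axis) of 6 responding genes by month, with DM, 10, 40 and 80 µg MWCNT from left to right at each time. A point is a mouse, and the bars are the mean and SD of 8 mice. In Trem2 the 80 µg mice at 1 month reach 7.71 and overlap the 40 µg mice, while in Clca1 the 80 µg mouse at 3.71 at 6 months lies at the level of DM mice.

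To ask which genes were still rising, responding genes were chosen by the mean of both doses minus DM over the 3 times, a contrast that with equal groups does not depend on the difference between the doses. By it 1545 genes (6.97%) changed, of which 929 rose (4.19% of 22180) and 616 fell (2.78%). With arrays centred on their medians 953 rose and 942 fell. Of the 929 genes higher than DM, 1 was also called higher at 80 than at 40 µg. For the others the interval of the step says how much room was left, since an adjusted p over the threshold does not show a plateau. The step had a median of 0.07 over the 929 genes and 0.00 over all 22180, and its 95% interval lay above 0 in 198 (21.3%), against 5.39% of all genes, and below 0 in 11 (1.18%), against 3.84%. In 866 of the 929 (93.2%) the upper limit was under 1.5-fold, as it was in 98.7% of all genes, and in 913 it was under 2-fold, as in 99.7% of all genes.

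The median step was larger in genes with a larger response. It had a median of 0.05 in the 763 genes that rose by under 0.5 over DM, 0.19 in the 125 genes that rose by 0.5 to 1, and 0.40 in the 41 genes that rose by 1 or more. In these 41 genes the interval lay above 0 in 20 and below 0 in 0. Per time, the median difference of the 41 genes was 0.50 at 1 month, 0.44 at 6 months and 0.28 at 12 months, with intervals above 0 in 12, 10 and 5 genes (background 0.956%, 1.29% and 8.6% of all genes). Intervals below 0, which 1.43%, 1.84% and 5.15% of all genes had at these times, were found in 0 of the 41. Whether the difference itself varied with time was tested gene by gene only, where 0 genes passed. Without arrays high in other tissue the 42 genes that then rose by 1 or more had a median step of 0.38. The 41 genes are the main subject of what follows.

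**Figure D2:**
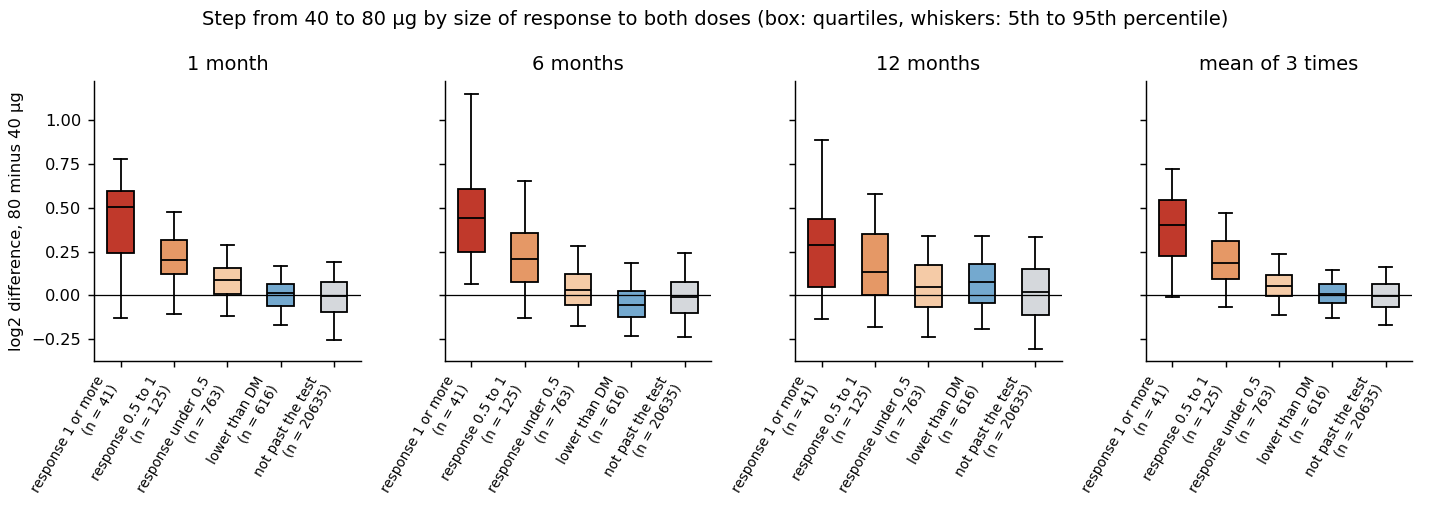
Log2 difference, 80 minus 40 µg (vertical axis), at 1, 6 and 12 months and as the mean of the 3 times, for genes grouped by their response to both doses over DM. Boxes are quartiles with the median as a line, whiskers reach the 5th and 95th percentiles, and n is the number of genes. The median over all times is 0.40 in the 41 genes with a response of 1 or more and 0.01 in the 616 genes lower than DM.

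The mean of the 41 genes in each mouse describes how the doses were spaced. The genes were chosen for rising by 1 or more over these same DM mice, so the gap from DM leans by construction. At 1 month the medians over mice were 5.10 for DM, 5.79 at 10 µg, 6.80 at 40 µg and 7.22 at 80 µg. At 6 months they were 4.96, 5.64, 6.35 and 6.75 in the same order, and at 12 months 5.15, 5.59, 6.07 and 6.34. Ranges at the upper doses overlapped: at 1 month mice at 80 µg ran from 6.72 to 7.67 and mice at 40 µg, overlapping them, from 6.20 to 7.45. At 6 months the 80 µg group was the widest of the 12 groups, from 5.31 to 8.46 with an SD of 0.98, against 5.74 to 6.93 with an SD of 0.45 at 40 µg. The lowest of these was replicate 7, which was the lowest of the 8 mice in 31 of the 41 genes and at or under the highest 6-month DM mouse in 34. Without it the median difference of the 41 genes at 6 months was 0.65 in place of 0.44, and over all times 0.45 in place of 0.40, with 3 genes called (Trem2, Gpnmb and Cd177). This omission was chosen after the values were seen. The highest of these mice was replicate 2 at 8.46, with the next at 7.58. Without replicate 2, 0 genes were called over all times, and the medians were not computed without it. Values given below without replicate 7 leave out this low mouse only.

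Gpnmb, a glycoprotein of lipid-laden macrophages, had lowest, median and highest values of 7.91, 9.31 and 10.24 in 80 µg mice at 1 month, against 7.72, 8.40 and 9.62 in 40 µg mice. At 12 months they were 8.08, 8.24 and 9.33 at 80 µg and 7.03, 7.42 and 8.64 at 40 µg, so that the lowest mouse at 80 µg lay above the median at 40 µg. At 6 months the values of Gpnmb at 80 µg ran from 6.39 to 10.36 and those at 40 µg from 6.97 to 9.30, and the groups overlapped throughout. Its step of 0.75 ± 0.18 (95% interval 0.39 to 1.11) did not pass the test (adjusted p = 0.181), but did with array weights (0.87, adjusted p = 0.023) and without replicate 7 at 6 months (0.86, adjusted p = 0.0157).

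Mmp12, the elastase of macrophages, had medians of 9.11, 8.51 and 8.21 in 80 µg mice at 1, 6 and 12 months and of 8.37, 8.30 and 7.14 in 40 µg mice. At 12 months 6 of 8 mice at 80 µg lay above every mouse at 40 µg, with a range of 7.73 to 8.64 at 80 µg and of 6.34 to 8.06 at 40 µg. Its differences were 0.74, 0.27 and 0.89 at the 3 times, and the step of 0.64 (0.23 to 1.04) did not pass the test (adjusted p = 0.39). The Mmp12 difference at 6 months was 0.69 without replicate 7 and 0.05 without arrays high in other tissue.

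Retnla, a secreted marker of alternatively activated macrophages, was nearest to separation at 1 month, where 5 of 8 mice at 80 µg lay above every mouse at 40 µg. Its lowest, median and highest values there were 10.70, 11.17 and 11.66 at 80 µg, against 9.90, 10.61 and 11.04 at 40 µg. At 12 months 0 of 8 mice at 80 µg lay above all mice at 40 µg, with ranges of 9.28 to 10.21 at 80 µg and 8.54 to 10.33 at 40 µg. The Retnla step was 0.47 (0.12 to 0.82, adjusted p = 0.436), from 0.59, 0.50 and 0.31 at 1, 6 and 12 months, with 0.85 at 6 months without replicate 7. Arg1, the arginase of the same macrophage state, had differences of 0.46, 0.76 and 0.04, and Chil4, a chitinase-like protein, of 1.11, 1.16 and -0.46. At 12 months Chil4 had medians of 3.15 at 80 µg and 3.12 at 40 µg. Over the alternative settings the Arg1 step, 0.42 in the main fit, ran from 0.02 to 0.455. That of Chil4, 0.60 in the main fit, ran from 0.23 to 0.66. Retnla and Arg1 are members of the type 2 immunity list, which as a whole did not share their steps. Its 16 measured genes had a median step of 0.01, 8 of them had a step above 0, and limma called 0. Intervals lay above 0 in 3 of the 16 and below 0 in 1, against 5.39% and 3.84% of all genes.

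Ctsk, a cathepsin that degrades collagen and is typical of osteoclasts, had medians of 8.52, 7.71 and 7.46 in 80 µg mice and of 7.96, 7.26 and 7.00 in 40 µg mice at 1, 6 and 12 months. Its step of 0.48 (0.19 to 0.78) did not pass the test (adjusted p = 0.347). Atp6v0d2, a proton pump subunit of the same cells that is named after its values were seen, had a step of 0.35 (0.08 to 0.63), and Cd68, a glycoprotein of macrophage lysosomes, of 0.44 (0.21 to 0.67). At 12 months 6 of 8 mice at 80 µg lay above every mouse at 40 µg in Cd68, with ranges of 8.07 to 9.08 at 80 µg and 7.35 to 8.32 at 40 µg.

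Of the 20 genes listed for lipid-laden macrophages, 12 rose over DM, against 4.19% of all genes. The step of this list had a median of 0.21 with 9 intervals above 0 and 1 below, against 5.39% and 3.84% of all genes. Limma called 1 of the 20, Trem2. Without arrays high in other tissue the median of this list was 0.14 and the intervals above 0 were 8, with 0 genes called. The lysosome list had a median of 0.14 with 10 of 18 intervals above 0 and 0 below, also 10 without those arrays. Of its 18 genes 14 rose over DM, against 4.19% of all genes. Ctsb and Ctsd, lysosomal proteases, had steps of 0.25 (0.13 to 0.36) and 0.25 (0.11 to 0.39), and at 12 months 7 of 8 mice at 80 µg lay above every mouse at 40 µg in Ctsb. The osteoclast-type list had a median of 0.14 and 4 of 10 intervals above 0. The CC chemokines, which attract monocytes and eosinophils, had a median of 0.13 and 4 of 14, with Ccl11, the eosinophil chemokine eotaxin, at 0.46 (0.18 to 0.74). In all these lists 0 genes other than Trem2 were called.

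**Figure D3:**
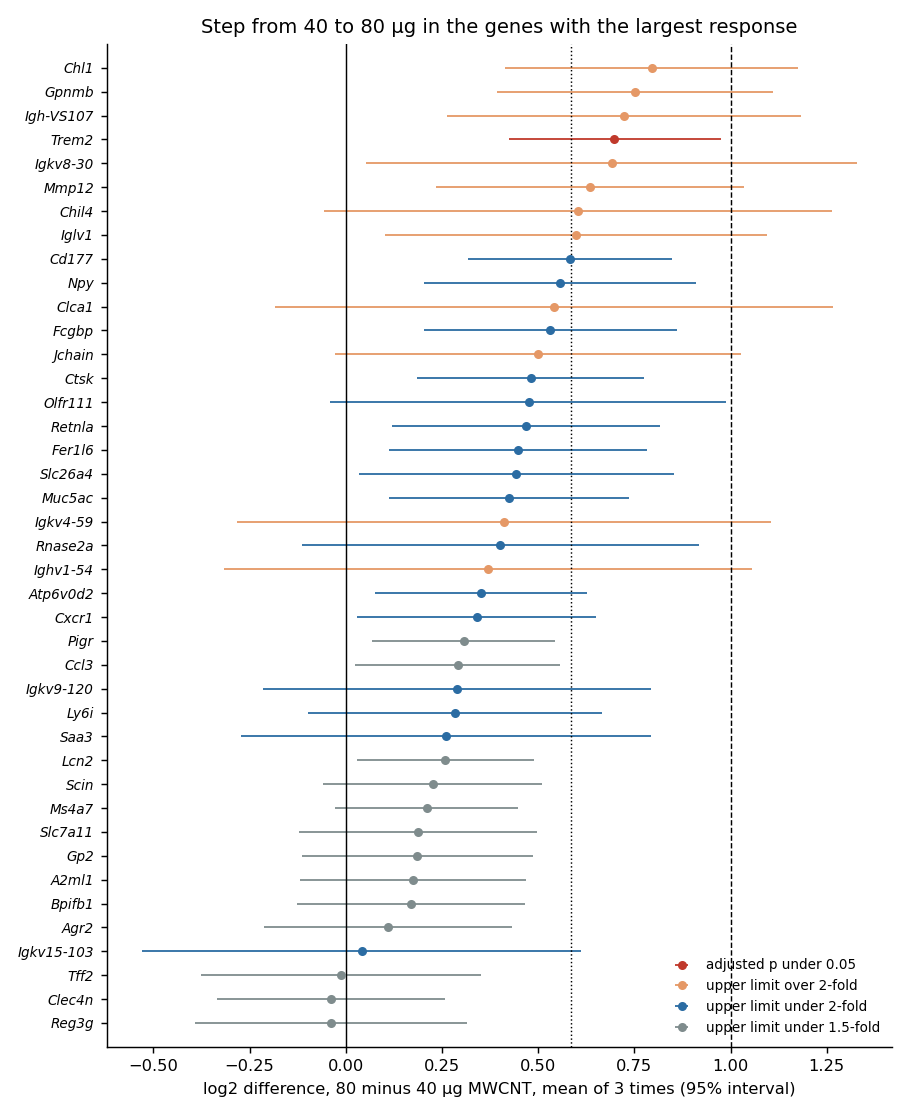
Step from 40 to 80 µg (log2 difference, 80 minus 40 µg, mean of 3 times) with its 95% interval for the 41 genes that rose by 1 or more over DM. The dotted line is 1.5-fold and the dashed line is 2-fold. Trem2 is the 1 gene past the test, 13 genes have an upper limit under 1.5-fold, and the steps of Reg3g, Tff2 and Clec4n are -0.04, -0.01 and -0.04.

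Clca1, a secreted protein of airway mucous cells, had the largest response of all genes, 5.15 over DM. Its medians were 11.33, 9.56 and 8.29 in 80 µg mice and 10.72, 8.81 and 6.94 in 40 µg mice at 1, 6 and 12 months. The Clca1 step of 0.54 had a wide interval (-0.18 to 1.27), since mice ran from 5.09 to 9.76 at 40 µg at 12 months and from 3.71 to 11.76 at 80 µg at 6 months. Muc5ac, a gel-forming mucin, had differences of 0.48, 0.55 and 0.24 and a step of 0.42 (0.11 to 0.74). Fcgbp, a mucus protein, had differences of 0.70, 0.61 and 0.29 and a step of 0.53 (0.20 to 0.86). Muc5b, the mucin of healthy airways, had a step of 0.24 (0.04 to 0.44). Of the 14 mucous cell genes 12 rose over DM, against 4.19% of all genes. Their step had a median of 0.24, and 7 intervals lay above 0 and 0 below, against 5.39% and 3.84% of all genes, with the same interval counts without arrays high in other tissue. Limma called 0 of the 14 between the doses.

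Spdef, a transcription factor of goblet cell differentiation, had its largest difference at 6 months. Its lowest, median and highest values then were 4.08, 4.51 and 4.96 in 80 µg mice and 3.43, 3.91 and 4.18 in 40 µg mice, and 7 of 8 mice at 80 µg lay above every mouse at 40 µg. With predicted genes and olfactory and vomeronasal receptors passed over, the difference of 0.68 ± 0.15 had the smallest p at 6 months. It did not pass the test (adjusted p = 0.205). It passed without arrays high in other tissue (0.75, adjusted p = 0.0194). At 1 and 12 months the Spdef differences were -0.09 and 0.16. The 2 genes next in order at 6 months were D6Ertd527e (0.62) and Rbmxl1 (-0.31), each with an adjusted p of 0.999.

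Among the 41 genes, 13 had an upper limit of the step under 1.5-fold. This bounds the step between 40 and 80 µg but does not by itself show levelling off, for which a contrast is given below. Reg3g, an antimicrobial lectin of epithelium, had a step of -0.04 (-0.39 to 0.32) after a response of 1.40 over DM. Its medians were 8.10, 7.91 and 7.80 in 80 µg mice and 8.34, 8.01 and 7.90 in 40 µg mice at 1, 6 and 12 months, and the ranges overlapped at each time. Tff2, a trefoil peptide of mucous epithelium, had a step of -0.01 (-0.38 to 0.35), with medians of 7.22, 6.81 and 6.81 at 80 µg and of 7.36, 6.56 and 6.81 at 40 µg. Clec4n, a lectin receptor of myeloid cells for fungal sugars, had a step of -0.04 (-0.33 to 0.26), with medians of 7.13, 6.46 and 6.50 at 80 µg and of 7.09, 6.18 and 6.15 at 40 µg. These limits still allow a step of up to 0.26 to 0.35, so small changes between the doses were not detectable here.

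The other 10 of the 13 were Agr2 (0.11), Bpifb1 (0.17), A2ml1 (0.18), Gp2 (0.19), Slc7a11 (0.19), Ms4a7 (0.21), Scin (0.23), Lcn2 (0.26), Ccl3 (0.29) and Pigr (0.31), by their log2 steps. Agr2 is a chaperone that mucous cells need to make mucin, and Slc7a11 is the cystine importer that feeds glutathione synthesis. Lcn2 is an iron-binding acute phase protein and Pigr the receptor that carries IgA across epithelium. In Lcn2, Ccl3 and Pigr the interval, which is not adjusted for the number of genes, also lay above 0. These 3 did not pass the limma test (adjusted p = 0.494, 0.507 and 0.451). Pigr had an interval of 0.07 to 0.55. At the other end, 11 of the 41 had an upper limit over 2-fold without passing the test, among them Gpnmb, Mmp12, Clca1, Chil4 and Jchain, with lower limits that ran from -0.32 (Ighv1-54) to 0.41 (Chl1). The 13 genes are named by their intervals after these were seen.

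Just inside the limit of 1.5-fold lay Ccl3, with an upper limit of 0.56. Just outside it lay an immunoglobulin light chain segment and Atp6v0d2, whose upper limits were 0.61 and 0.63.

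A direct measure of levelling off sets the change from 40 to 80 µg, which is 1 doubling of dose, against the change per doubling from 10 to 40 µg, which are 2 doublings apart. By this contrast 0 genes of 22180 (0%) passed the limma test, and 1558 were under 0.05 before adjustment. Its median over the 41 genes was 0.01 and its interval lay above 0 in 2 (3.25% of all genes) and below 0 in 0 (3.77%). For scale, the 41 genes had a median change of 0.58 between 10 µg and DM and of 0.64 between 40 and 10 µg. Since high values at 40 µg favour the choice of a gene as responding, this contrast and these earlier steps lean by construction and are given as descriptions. Among single genes Trem2 was at 0.40 (0.04 to 0.77), Clec4n at -0.38, Reg3g at -0.35 and Clca1 at -0.41 (-1.37 to 0.55). Of the other genes with an upper limit of the step under 1.5-fold, Tff2 was at -0.34 and Agr2 at -0.145. Scin was at -0.14, Ms4a7 at -0.10, Ccl3 at -0.09, Slc7a11 and A2ml1 at -0.07 and Gp2 at -0.03. Lcn2 was at -0.001, Bpifb1 at 0.045 and Pigr at 0.06. Apart from that of Trem2, the intervals of all these genes, Clec4n and Reg3g among them, held 0. The 3 genes with the smallest p are given with predicted genes and olfactory and vomeronasal receptors passed over. They were Nkx1-1, a homeobox gene (-0.39), Rbmxl1, an RNA-binding protein (-0.22), and Wfs1, a protein of the endoplasmic reticulum membrane (0.33). Each had an adjusted p of 0.709.

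No antibody gene passed the test between the doses. Igh-VS107, an immunoglobulin heavy chain segment, had medians of 8.68, 9.41 and 9.06 in 80 µg mice and of 8.10, 8.55 and 8.55 in 40 µg mice at 1, 6 and 12 months. Its step of 0.72 (0.26 to 1.18) did not pass the test (adjusted p = 0.39). Jchain, which joins IgA and IgM into polymers, had a step of 0.50 (-0.03 to 1.03) with 0.95 at 6 months, and Iglv1, a light chain segment named after its values were seen, of 0.60 (0.10 to 1.10) with 1.15 at 6 months. Immunoglobulin segments share sequence, so probes of one may read another. The segments Igkv9-120, Ighv1-54 and Igkv4-59 had steps of 0.29, 0.37 and 0.41 with intervals across 0. The plasma cell list had a median step of 0.11 with 0 of 10 intervals above 0.

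Acute phase and neutrophil genes were mixed. The 12 acute phase genes had a median step of 0.15 with 1 interval above 0. Saa3, a serum amyloid made in inflamed lung, had medians of 6.74, 5.72 and 5.04 in 80 µg mice and of 6.74, 5.21 and 5.36 in 40 µg mice at 1, 6 and 12 months, so that the order of the doses turned at 12 months (difference -0.34, interval -1.27 to 0.58, and -0.18 without arrays high in other tissue). Its step was 0.26 (-0.27 to 0.79). Cd177, a surface protein of neutrophils, had a step of 0.58 (0.32 to 0.85, adjusted p = 0.181) and at 1 month medians of 6.95 at 80 µg and 6.32 at 40 µg, with 4 of 8 mice at 80 µg above every mouse at 40 µg. It passed the test with array weights (0.60, adjusted p = 0.0273) and without replicate 7 at 6 months (0.65, adjusted p = 0.0157). The rest of the neutrophil list did not share this: its 14 genes had a median of 0.01, with 1 interval above 0 (Cd177) and 2 below. S100a8, a calcium-binding protein of neutrophils, was at -0.43 (-0.85 to -0.02), or -0.17 with deposition order as a spline. Cxcr1, a chemokine receptor outside the list that is named after its values were seen, had a step of 0.34 (0.03 to 0.65). CXC chemokines had a median of -0.03, and interferon-stimulated genes of -0.02 with 0 of 13 intervals on either side of 0.

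**Figure D4:**
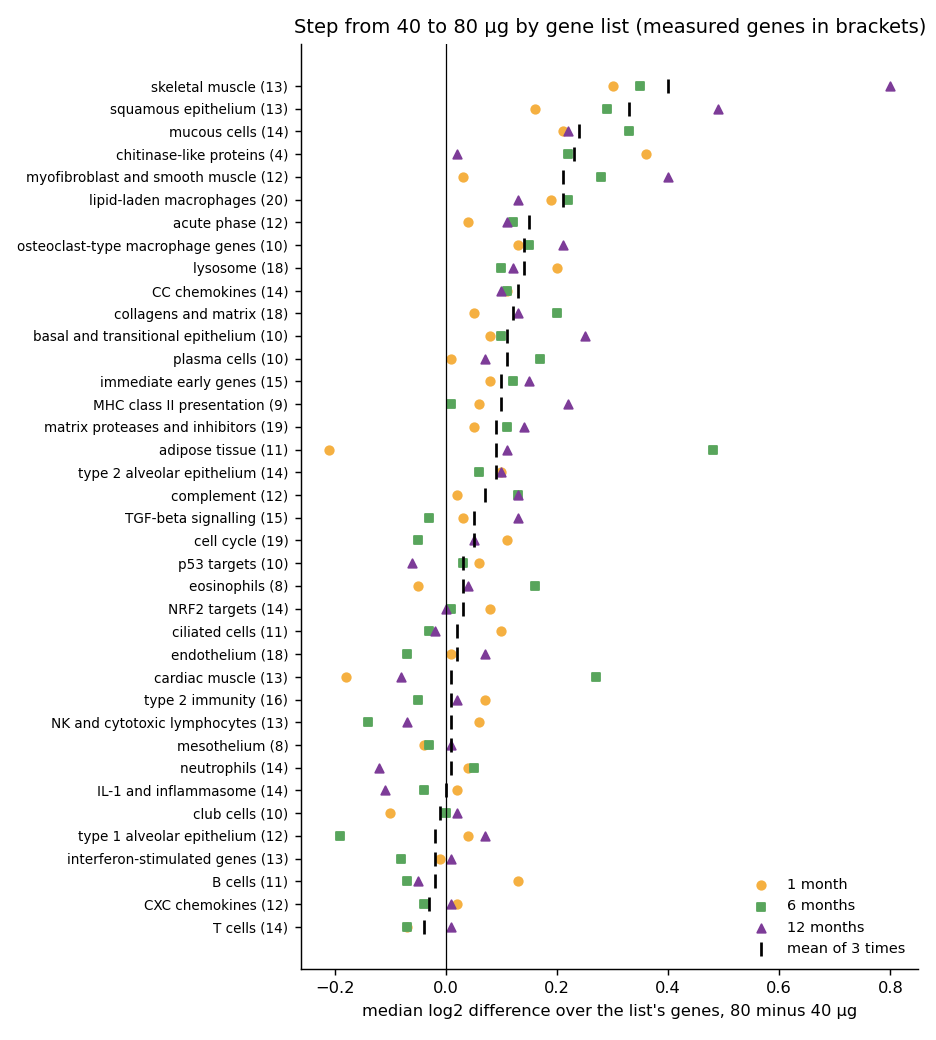
Median log2 difference, 80 minus 40 µg, over the measured genes of each of 38 lists, at 1, 6 and 12 months (symbols) and as the mean of the 3 times (bar). The mucous cell list is at 0.24 and the lipid-laden macrophage list at 0.21, while skeletal muscle (0.40) and squamous epithelium (0.33) are at -0.04 and -0.01 without arrays high in other tissue.

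Over all times together, genes lower than DM were spread around 0 between the doses. The 616 genes had a median step of 0.01, with 15 intervals above 0 and 15 below (2.44% each, against 5.39% and 3.84% of all genes). Their median difference was 0.01 at 1 month, -0.06 at 6 months and 0.08 at 12 months. At 6 months 0.325% had an interval above 0 and 3.41% below, against 1.29% and 1.84% of all genes. At 12 months these were 11.9% and 1.46%, against 8.6% and 5.15%. In the levelling contrast, which leans by construction, 7.63% lay above 0 and 0.325% below, against 3.25% and 3.77% of all genes. With predicted genes and olfactory and vomeronasal receptors passed over, Gria1, a glutamate receptor subunit, had the lowest value of the responding genes (-0.57 against DM). Its medians were 5.72, 5.74 and 5.93 in 80 µg mice and 5.64, 6.16 and 5.77 in 40 µg mice. Its step was -0.01 (-0.19 to 0.17). Adm, the vasodilator adrenomedullin, had a step of -0.21 (-0.43 to 0.01). Of 11 B cell genes 10 were lower than DM, against 2.78% of all genes, a share that also applies to the next 3 lists. The median step of the B cell list was -0.02 with 0 intervals on either side of 0. For T cells (4 of 14 lower than DM), NK and cytotoxic lymphocytes (7 of 13) and endothelium (9 of 18) the median steps were -0.04, 0.01 and 0.02. Gzma, a granule protease of killer cells, was at -0.34 (-0.60 to -0.07), or -0.17 with deposition order as a spline.

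Collagens and matrix genes had intervals above 0 between the doses although few differed from DM. Of 18 collagens and matrix genes 1 rose and 1 fell against DM, where 4.19% of all genes rose and 2.78% fell. In the step 8 of the 18 had an interval above 0 and 0 below, against 5.39% and 3.84% of all genes. The median step was 0.12, and the median difference was 0.05 at 1 month, 0.20 at 6 months and 0.13 at 12 months. Limma called 0 of the 18. Col1a1 and Col3a1, the chains of the main fibrillar collagens, had differences of 0.35 and 0.40 at 6 months and steps of 0.20 (0.01 to 0.40) and 0.17 (0.01 to 0.34), with responses of 0.02 and 0.13 over DM. With deposition order as a spline the Col1a1 step was 0.08. Tnc, the wound matrix protein tenascin C, had a step of 0.30 (0.10 to 0.50). Mean levels over the 3 times at DM, 40 and 80 µg were 5.65, 5.89 and 6.19 for Tnc and 8.40, 8.31 and 8.52 for Col1a1. For Eln, of the same list, they were 8.06, 7.84 and 8.06, so that its 80 µg mean only reached that of DM. Without arrays high in other tissue 5 of the 18 intervals lay above 0, and with the word replacement as a covariate 2 did. The matrix protease list had a median of 0.09 and 6 of 19 intervals above 0, with Mmp19, a metalloprotease, at 0.43 (0.22 to 0.64, adjusted p = 0.184).

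Contractile genes also had intervals of the step above 0, but more of them were lower than DM. Of 12 genes of smooth muscle and myofibroblasts 4 fell and 0 rose against DM, where 2.78% of all genes fell and 4.19% rose. Their step had a median of 0.21 and 6 intervals lay above 0, against 5.39% of all genes. Limma called 0 of the 12 between the doses. Their median difference was 0.03, 0.28 and 0.40 at 1, 6 and 12 months. Tpm2, a muscle tropomyosin, had a step of 0.42 (0.12 to 0.73), but 0.17 without arrays high in other tissue, where its difference at 12 months was 0.01 in place of 0.54. Myh11, the smooth muscle myosin, had a step of 0.31 (0.06 to 0.56), or 0.15 with deposition order as a spline. Mean levels over the 3 times at DM, 40 and 80 µg were 6.29, 5.74 and 6.17 for Tpm2 and 8.93, 8.46 and 8.77 for Myh11. For Cnn1, of the same list, they were 8.43, 7.77 and 7.98. In these genes the 80 µg mean lay above the 40 µg mean but under the DM mean. Without arrays high in other tissue 1 of the 12 intervals lay above 0 and the median was 0.17, and with the word replacement as a covariate they were 1 and 0.13.

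Skeletal muscle and squamous genes differed through 4 mice. Krt4, a keratin of the squamous lining of mouth and oesophagus, was at 11.24 in 1 mouse at 80 µg at 1 month and at 11.84 in 1 at 6 months, while the other mice of these groups lay between 2.99 and 3.61. The mice at 40 µg lay between 2.71 and 3.78 at all times. Acta1, the actin of skeletal muscle, was at 9.12 and 10.00 in the same mice at 80 µg, and mice at 40 µg lay between 3.07 and 4.62. Over 13 squamous genes the mean level ran from 2.82 to 5.61 at 1 month, 2.95 to 6.08 at 6 months and 3.16 to 6.19 at 12 months at 80 µg, against 2.95 to 3.53 over all times at 40 µg. Over 13 skeletal muscle genes it ran from 3.33 to 6.83 at 80 µg and from 3.26 to 4.11 at 40 µg. Of these lists 6 and 3 genes had an interval of the step above 0, and 1 and 0 without arrays high in other tissue. Among the 24 DM mice 1 was high in both lists, at 1 month, and 3 more were high in skeletal muscle genes only or mainly.

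**Figure D5:**
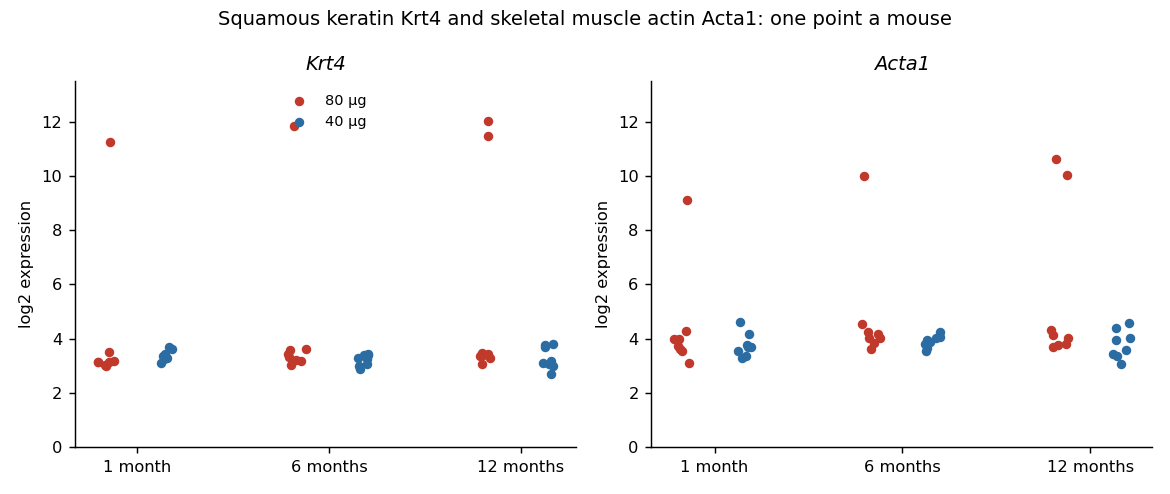
Log2 expression of the squamous keratin Krt4 and the skeletal muscle actin Acta1 in each mouse, with 80 µg left of 40 µg at each time. In 4 of 24 mice at 80 µg both genes are high, with Krt4 from 11.24 upward, and in 0 of 24 mice at 40 µg.

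Type 2 alveolar cells make surfactant. Of 14 of their genes 7 rose over DM, against 4.19% of all genes, and limma called 0 between the doses. Their median step was 0.09, and 6 intervals lay above 0 and 0 below, against 5.39% and 3.84% of all genes, or 7 above 0 without arrays high in other tissue. Fasn and Scd1, enzymes of fatty acid synthesis, had steps of 0.27 (0.11 to 0.43) and 0.21 (0.09 to 0.33), and Sftpd, a surfactant collectin, of 0.12 (0.00 to 0.25) after a response of 0.58 over DM. Type 1 alveolar, ciliated and club cell lists had medians of -0.02, 0.02 and -0.01. Sprr1a, a cornified envelope protein that transitional epithelium also makes, had a step of 0.58 (0.07 to 1.08) with 1.11 at 12 months, but 0.06 and 0.27 without arrays high in other tissue. Cell cycle genes, of which 10 of 19 rose over DM, had a median step of 0.05 with 3 intervals above 0 and 1 below. NRF2 targets and p53 targets had medians of 0.03 each, and Cdkn1a, a cell cycle inhibitor, was at 0.62 at 12 months and -0.04 and 0.03 at 1 and 6 months.

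The genes that followed Trem2 in order of p over all times were not past the test, and were named after their values were seen. They include Mfge8, a bridge between phagocytes and dying cells, at 0.32 (0.17 to 0.48, or 0.21 with deposition order as a spline), Mfsd12, a lysosomal cysteine carrier, at 0.37 (0.20 to 0.55), Psap, the precursor of saposins, at 0.22 (0.11 to 0.33) and Pld3, a lysosomal nuclease, at 0.27 (0.13 to 0.40). Wfs1 was at 0.31 (0.18 to 0.45, adjusted p = 0.136), with adjusted p-values of 0.181 for Mfge8 and Mfsd12 and 0.244 for Psap. Mfge8 and Wfs1 did not differ from DM by the test (responses of 0.10 and 0.13). At 12 months Mfge8 ran from 9.33 to 9.78 at 80 µg and from 8.69 to 9.48 at 40 µg, and DM mice from 8.96 to 9.58. Pon1, a lipoprotein esterase, was lower in 80 µg mice, with medians of 7.41, 8.11 and 8.61 at 80 µg and of 7.92, 8.27 and 8.76 at 40 µg, and a step of -0.37 (-0.56 to -0.18, adjusted p = 0.252). Chl1, a cell adhesion protein known from neurons, had the largest step of the 41 genes, 0.80 (0.41 to 1.18, adjusted p = 0.181), with 1.23 at 6 months, and of 0.56 without arrays high in other tissue.

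At 12 months Mon1a, part of the complex that matures endosomes by activating Rab7, rose by 0.62 ± 0.12 (95% interval 0.37 to 0.86, adjusted p = 0.0461). Its lowest, median and highest values were 6.25, 6.44 and 6.71 in 80 µg mice and 5.55, 5.78 and 6.21 in 40 µg mice, and 8 of 8 mice at 80 µg lay above every mouse at 40 µg. DM mice at 12 months had 5.46, 6.18 and 6.41 and mice at 10 µg had 5.93, 6.23 and 6.57, so the 40 µg group lay low and the 80 µg group high. At 1 and 6 months the Mon1a differences were 0.13 and 0.07, and over both doses it did not differ from DM (0.01). The call was lost with the order of deposition as a spline (0.44, adjusted p = 0.415), without arrays high in other tissue (0.61, adjusted p = 0.189), with replacement as a covariate (0.60, adjusted p = 0.0521) and without arrays of low correlation (0.58, adjusted p = 0.0778). In the last 3 of these the difference stayed near 0.62.

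The 12-month comparison depended on which arrays entered it. Intervals lay above 0 in 8.6% and below 0 in 5.15% of all genes, against 0.956% and 1.43% at 1 month. Among arrays without the word replacement, 3 at 80 µg and 4 at 40 µg, limma called 1179 genes, 580 higher and 599 lower, and among arrays with it, 5 at 80 µg and 4 at 40 µg, it called 0. With that word as a covariate it called 0. In the arrays without the word the order of deposition and the dose cannot be told apart, since all 4 at 40 µg came after all 3 at 80 µg.

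Predicted genes and olfactory and vomeronasal receptors were passed over here too. At 1 month the genes with the smallest p were Aqp2, a water channel known from kidney (-0.61), BC048507 (-1.04) and Mia2, a protein of secretory export (0.61), each with an adjusted p of 1. For the test of equal differences at the 3 times they were Emd, the nuclear membrane protein emerin, Nmnat3, an enzyme of NAD synthesis, and Crtc2, a coactivator of CREB, each with an adjusted p of 0.999. Emd had differences of -0.04, -0.15 and 0.40 at 1, 6 and 12 months, Nmnat3 of 0.28, 0.09 and -0.41, and Crtc2 of 0.02, -0.18 and 0.33. In all 3 the difference at 12 months was the largest in size.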

How the data were processed

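Lung RNA was measured on 139 arrays, 1 per mouse but for 1 animal given 1 µg, whose 2 arrays were averaged. Values are log2 expression as deposited, from -0.05 to 13.28, with array medians of 4.01 to 4.34. Per the submitters' processing notes the tools were RMA, oligo and limma, with no version or role for any of them and no genome build. All columns were used. Of 41345 features 23521 had a single symbol, 1814 several and 16010 none, and 23328 of the single-symbol ones matched RefSeq records (GRCm38.p6) by Entrez number. The feature with the highest mean was kept per gene, leaving 22180. Platform annotation can be old.

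The limma package (version 3.58.1, R 4.3.3) gave 1 linear model of 18 group means with 120 residual degrees of freedom and empirical Bayes moderation, with Benjamini-Hochberg adjustment over all genes at 0.05. The script was tested on simulated data. Figures were drawn with matplotlib 3.10.9. Groups came from the label of material, dose and time, and replicate numbers follow deposition order. Animals were numbered apart in the labels, so replicates are separate mice. The number of arrays limits the precision.

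The groups, the comparisons and the 38 gene lists (493 of 531 members measured) were chosen with earlier results of these data known, and the lists are described by counts and medians with no set test. Named genes are those past a test, or the 3 with the smallest p where none passed, the 12 highest and 4 lowest responding genes, the 2 largest steps per list and a panel. In these rankings predicted genes (symbols with Gm and digits, Rik or LOC) and olfactory and vomeronasal receptors were passed over. Others are said to be named after their values were seen. Alternatives were quantile normalization, centring on array medians, trended and robust moderation, array weights, a filter on the median level, all features, the word replacement as a covariate or split, a spline (3 degrees of freedom) on deposition order, arrays left out, the compared groups alone, and each mouse left out.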

Additional observations from a re-analysis of the deposited data

Results flagged for a closer look

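Some single mice lay far from the rest of their group of 8, the gap to the nearest mouse taking more than the critical share of the group's range. Of 144 groups tested over 24 genes, 14 were flagged, where chance flags about 1 in 20 groups. The genes were taken from those named above and share the same mice. The flags are therefore not independent, and 1 in 20 is only a rough scale. Values are log2 and their causes were not tested.

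In 80 µg mice at 6 months Clca1, of mucous cells, was at 3.71 in replicate 7 (others 8.38 to 11.76), and Saa3, a serum amyloid, at 9.50 in replicate 2 (others 3.95 to 6.54). At 12 months replicate 8 at 80 µg was high in Cd177 (8.92, others 6.58 to 7.58), in the anion exchanger Slc26a4 (7.36, others 5.07 to 5.85), in Saa3 (7.31, others 4.19 to 5.63) and in Ctsk (8.10, others 7.18 to 7.57). In 40 µg mice at 12 months Cd177 was at 7.47 in replicate 8 (others 6.60 to 6.92) and Saa3 at 7.72 in replicate 2 (others 4.48 to 6.01). In 40 µg mice the mucus protein Fcgbp was at 7.38 in replicate 4 at 6 months (others 4.92 to 6.01), and Spdef at 3.55 in replicate 3 at 1 month (others 4.12 to 4.46).

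The markers of other tissues gave the remaining flags, all at 80 µg. At 1 month replicate 4 had Krt4 at 11.24 (others 2.99 to 3.51) and Acta1 at 9.12 (others 3.09 to 4.28). At 6 months replicate 3 had Krt4 at 11.84 (others 3.03 to 3.61) and Acta1 at 10.00 (others 3.60 to 4.54).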

How the results depend on the processing

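With 8 mice a group the median 95% interval spans 0.17 on either side of a step and 0.29 at a single time, so small differences were not detectable. No paired analysis was possible because the replicate numbers only follow deposition order and pair no mice. The counts of 0 for the levelling contrast were 0 under every alternative run. In the step over all times 9 named genes changed sign and 15 became called in some alternative. At single times Spdef (6 months), Aqp2 (1 month, array weights) and, with array weights at 12 months, Emd, Crtc2 and Cdkn1a among others also became called.

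The count over all times (1, Trem2) was 2 with centring on array medians, 21 with array weights (19 higher, 2 lower), and 0 with quantile normalization, all features, replacement as a covariate, the spline, and without arrays high in other tissue, alone or with low-correlation arrays left out too, a pair chosen after seeing the data. In the compared groups alone and in arrays without replacement it was 1, but the gene was Mon1a and Pcdhb2, and Trem2 had adjusted p-values of 0.308 and 0.332. Leaving out 1 mouse gave 0 to 7, the 7 (Ctsb, Gpnmb, Mfge8, Mfsd12, Mmp19, Trem2 and Wfs1) without 80 µg replicate 4 at 6 months. The count of responding genes still higher at 80 µg (1) was 13 with array weights, 0 in those same settings, in arrays without replacement and in the groups alone, and 0 to 5 over single mice.

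At 12 months the count (1) was 3 with quantile normalization, 2 with centring and with all features, 304 with array weights (220 higher, 84 lower), 1179 in arrays without replacement, and 0 in arrays with it, with it as a covariate, with the spline, without low-correlation arrays, without arrays high in other tissue, without both, and in the groups alone. Over single mice it was 0 to 25, the 25 without 40 µg replicate 4 at 12 months. Mon1a kept its call in 18 of 48 such fits (0.58 to 0.67, adjusted p 0.0118 to 0.168). At 1 month array weights gave 2. At 6 months the count was 1 without arrays high in other tissue, without both sets, and in the groups alone, where the gene was Orm3 (0.77, adjusted p = 0.0401). The interaction called 47 genes in arrays without replacement and 0 otherwise. Responding genes numbered 1545, or 2342 with array weights and 1367 to 1669 over single mice. The median step of the genes that rose by 1 or more lay between 0.35 and 0.42 under both normalizations, array weights, replacement, the spline and the left-out sets of arrays, and was 0.45 without replicate 7 at 6 months. The causes were not tested.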
